A study of Culter alburnus with 6 samples.

Results

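The 200 gene loci described here were those whose messenger RNA was higher in cryopreserved replicate 1, cryopreserved replicate 3 and control replicate 2 than in the other 3 libraries of a study on the topmouth culter, Culter alburnus, a freshwater relative of carps and minnows. They were selected on their measured levels out of 28228 loci. Raw counts were divided by median-of-ratios size factors, which bring the typical locus, not the library total, to a common level. The quotient is called the normalised count here. A locus was considered when its mean over the 3 high libraries lay between 50 and 15000 normalised counts and when the highest library was less than 3 times the lowest, both among the 3 high and among the 3 low libraries. The 13270 loci that met these limits were ranked by the lowest high library divided by the highest low library plus 5, and the first 200 were taken. The high libraries held 2 of 3 cryopreserved and 1 of 3 control libraries, so this pattern crosses the treatment of the study, and no test of high against low libraries is given because those same values chose the loci.

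The study compared 3 libraries of the cryopreserved group (titled treat) with 3 control libraries (titled wt). Cryopreserved embryos had been vitrified at the tail-bud stage and rewarmed. Controls carried the treatment label control, and no strain, genotype or age is given for either group. The tissue label of all 6 libraries is embryos, but the design text names larvae as the sequenced material. Which warming method the cryopreserved libraries had, water bath or laser with gold nanorods, is not labelled. Nothing states that the 3 libraries of a group came from separate animals or batches, so p-values here reflect only how much these libraries varied, possibly for technical reasons.

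Vitrification cools an embryo so fast, in concentrated cryoprotectant, that its water sets as a glass and forms few ice crystals. On rewarming, ice can form again unless the temperature climbs quickly, which is why gold nanorods that turn laser light into heat are placed around and in the embryo. The tail-bud stage is the time when the body axis of a fish embryo lengthens and muscle blocks, notochord, brain and eye take shape, so an RNA sample of a whole embryo mixes many tissues whose shares change as development goes on. In such a bulk sample, fewer cells of a type and less RNA per cell cannot be told apart.

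The loci carry locus tags only. In the reference annotation of assembly ASM4018292v1 the symbol repeats the locus tag for 200 of the 200, and each is annotated as protein coding, as are all 28228 loci. No gene name or function is therefore given to any locus, no marker of a tissue or cell type could be read, and the label embryo was not checked against markers. A single protein is annotated at 98% of the 200 loci, against 93.7% of the 21846 loci that passed the filter on low counts.

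Library totals lay between 26611022 and 30795972 counts. A pair of libraries stood apart from the rest, cryopreserved replicate 1 on the high side and control replicate 3 on the low side. Of all counts, 34.9% in cryopreserved replicate 1 and 35.3% in control replicate 3 fell on the 100 most abundant loci of the library, and the other 4 libraries had 21.5% to 25.2%. The Spearman correlation of log2 CPM (counts scaled to the size of the library) between these libraries was the lowest of the 15 pairs, at 0.811, and the highest was 0.974, between cryopreserved replicate 3 and control replicate 2. These correlations run across loci, which are not independent replicates. The high to low ratio, the fit of cryopreserved against control and the make-up of the list are also given without these 2 libraries. The results on locus span, neighbouring loci and count level are given only with them.

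All 200 loci passed the filter on low counts. The lowest raw count of any of them in any library was 4, and 143 had at least 50 raw counts in every library. At 5 loci a library held fewer than 10 counts, where counting error alone is a sizeable part of the value. Together the 200 loci took 0.469%, 0.144% and 0.432% of all counts in cryopreserved replicates 1, 2 and 3, and 0.18%, 0.526% and 0.109% in control replicates 1, 2 and 3. They are thus a small part of each library, and their summed share was higher in each of the 3 high libraries than in any low one. The loci were chosen for being higher in those libraries, so nothing is read from this direction.

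The difference between the high and the low libraries was a median of 3.69-fold over the 200 loci, taken as the ratio of the 3-library means. The middle of the list, between its quartiles, ran from 3.07-fold to 4.73-fold, and the whole from 2.16-fold to 12.9-fold. A ratio above 4 was reached by 78 loci and one above 6 by 19. For comparison, the median ratio over all 21846 tested loci was 1.004, and 2.29% of them exceeded 4. By construction, the 3 high libraries lay above the 3 low ones for 200 of 200 loci. The same complete separation was found for 14.4% of all tested loci (3145), and separation in the opposite direction for 14% (3061). Without cryopreserved replicate 1 and control replicate 3, the ratio of cryopreserved replicate 3 and control replicate 2 to cryopreserved replicate 2 and control replicate 1 had a median of 3.26 over the 200 loci, from 1.995 to 12.2. These 4 libraries are among those that chose the loci, so this range was set by the rule too.

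**Figure D1:**
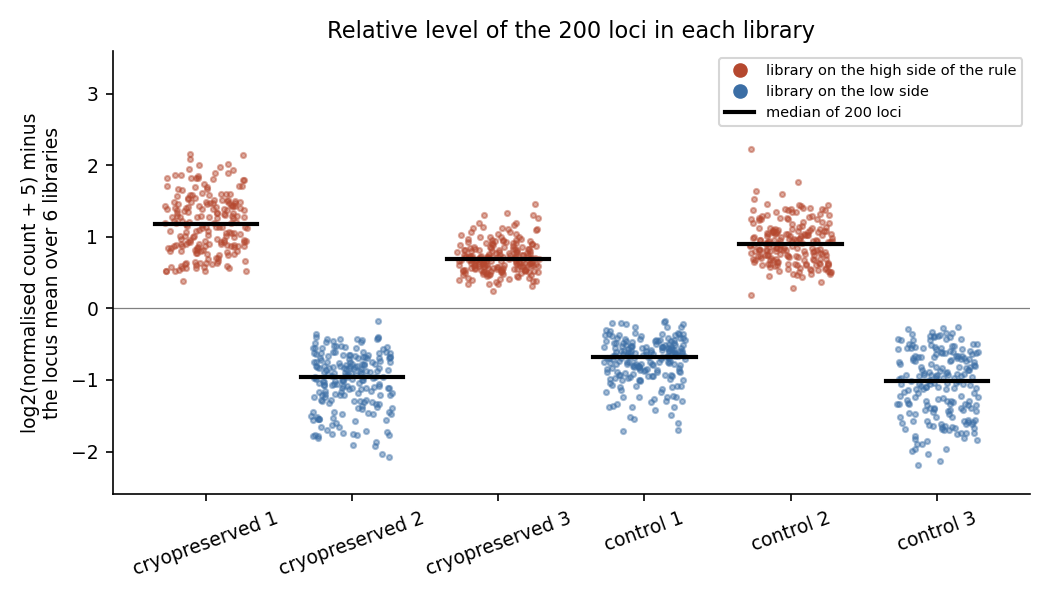
Level of each of the 200 loci in each library, as log2(normalised count + 5) minus the mean of the locus over the 6 libraries. Each point is a locus, and the black bars are medians, at 1.18, -0.96 and 0.69 in cryopreserved replicates 1, 2 and 3 and at -0.68, 0.91 and -1.02 in control replicates 1, 2 and 3.

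ABG768_020017 led the ranking. It had 232, 20.4 and 232 normalised counts in cryopreserved replicates 1, 2 and 3, against 31.6, 399 and 14.6 in control replicates 1, 2 and 3. Its highest value was thus in a control library and its lowest in another control library. The cryopreserved and control groups overlapped, as the rule requires at every listed locus. The lowest high library was 6.33 times the highest low one plus 5, and the ratio of the high to the low mean was 12.9, the largest of the list.

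ABG768_020289, the second in rank, had 526, 31.0 and 252 normalised counts in cryopreserved replicates 1, 2 and 3, against 48.8, 282 and 35.9 in control replicates 1, 2 and 3. Here cryopreserved replicate 1 was the highest of all libraries and cryopreserved replicate 2 the lowest, so the cryopreserved group spanned the whole range. ABG768_016636, the third, had the fewest counts of the leading loci, with 92.7, 5.31 and 73.9 normalised counts in cryopreserved replicates 1, 2 and 3, against 10.8, 123 and 12.4 in control replicates 1, 2 and 3.

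Among the first 10, ABG768_011274 had the deepest counts. Its levels were 3421, 192 and 1552 normalised counts in cryopreserved replicates 1, 2 and 3, against 396, 2104 and 301 in control replicates 1, 2 and 3. The 3 high libraries averaged 2359 ± 960 normalised counts and the 3 low ones 296 ± 102 (SD, n = 3 libraries each). The lowest high library was cryopreserved replicate 3, at 1552, and the highest low one control replicate 1, at 396. The rule chose loci on this gap and limited the spread within each side. Each side also mixes cryopreserved and control libraries, so these SDs are not those of replicates of a condition. ABG768_022599, the fourth in rank, had 1056, 135 and 606 normalised counts in cryopreserved replicates 1, 2 and 3, against 139, 615 and 94.4 in control replicates 1, 2 and 3.

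The other 5 of the first 10 loci had ratios of the high to the low mean from 5.17, at ABG768_012875, to 8.66, at ABG768_020177. ABG768_024599, ABG768_023620 and ABG768_014673 lay between them. In normalised counts, the highest library was cryopreserved replicate 1 at 7 of the first 10 loci and control replicate 2 at 3. The ranking value fell quickly over these first loci, as the plot of ranking values shows.

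**Figure D2:**
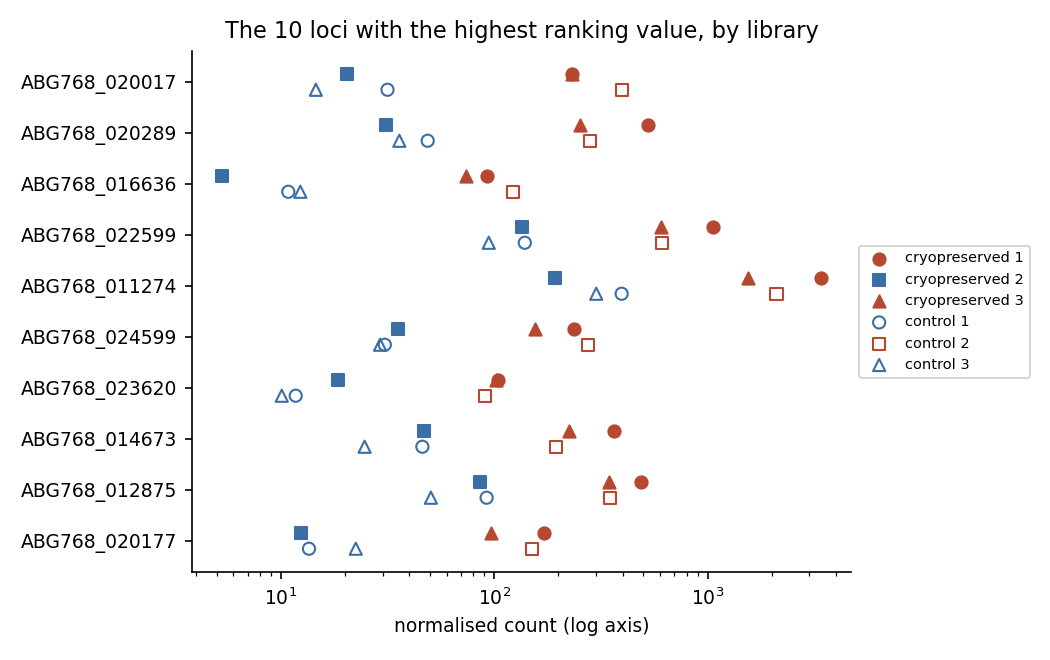
Normalised counts of the first 10 loci in each of the 6 libraries, on a log axis. Filled symbols are cryopreserved and open symbols control libraries, red marks the high and blue the low libraries. In each row the red symbols lie to the right of the blue ones, and at ABG768_020017 the lowest red symbol is at 232 and the highest blue one at 31.6.

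The list ended where neighbouring loci hardly differed. At the last 3 ranks, ABG768_014309, ABG768_014462 and ABG768_026825 had ranking values of 1.84, 1.83 and 1.83. Just outside, ABG768_014443, ABG768_013969 and ABG768_016665 had 1.82, 1.82 and 1.82. A further 1770 loci within the limits had a value above 1, so the 200 are the upper end of a continuous series and not a separate class. The median ranking value of the list was 2.17, with 138 loci above 2 and 21 above 3.

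With the sides exchanged, the same rule gave a list of loci high in cryopreserved replicate 2 and control replicates 1 and 3, with smaller differences. The first locus had a value of 6.33 in the list described here and of 2.95 in the exchanged one, and the locus at rank 200 had 1.83 and 1.47. Values above 2 were reached by 138 loci and by 9. More loci, however, were above 1 in the exchanged direction, with 1970 here and 2275 there. The ratio of the 3-library means had a median of 3.69 here and of 2.18 in the exchanged list.

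**Figure D3:**
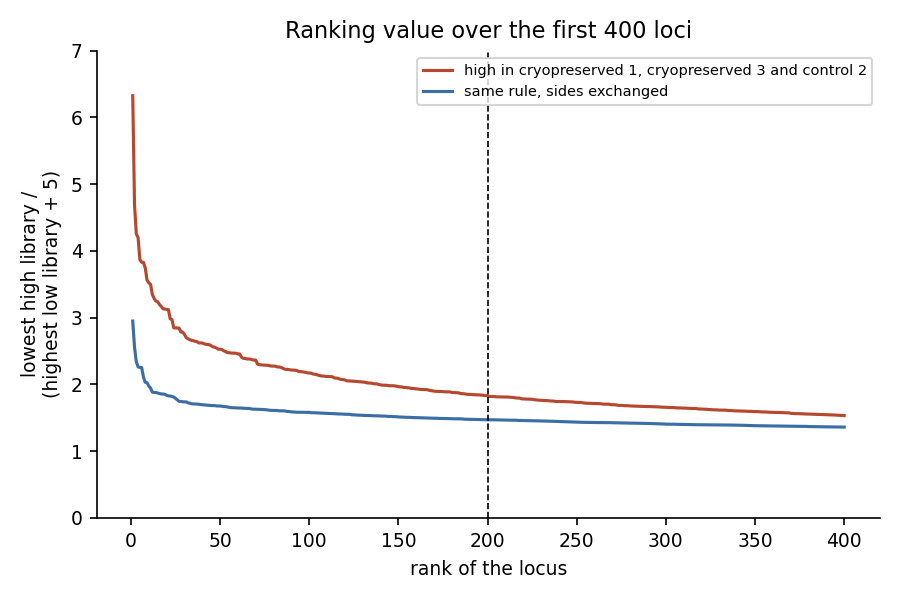
Ranking value, the lowest high library divided by the highest low library plus 5, for the first 400 loci of the list described here (red) and with the sides exchanged (blue). The dashed line marks the end of the list at 200, where the values are 1.83 and 1.47.

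Levels within the high libraries were not equal. Cryopreserved replicate 1 was the highest of the 3 at 140 loci, control replicate 2 at 51 and cryopreserved replicate 3 at 9. Cryopreserved replicate 3 was the lowest of the 3 at 127 loci. The highest of these 3 libraries was a median of 1.52 times the lowest, against 1.49 over all 13270 loci within the limits. Cryopreserved replicate 1 exceeded both others by more than 1.5 times at 45 loci, control replicate 2 at 5 and cryopreserved replicate 3 at 1. The 140 loci led by cryopreserved replicate 1 had a median ratio of high to low means of 3.96, and the 51 led by control replicate 2 one of 3.44.

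Within the low libraries, control replicate 3 was the lowest at 101 loci, cryopreserved replicate 2 at 73 and control replicate 1 at 26. The highest of the 3 was a median of 1.77 times the lowest, against 1.56 over the loci within the limits. Control replicate 3 was below both others by more than 1.5 times at 42 loci, cryopreserved replicate 2 at 30 and control replicate 1 at 4. In normalised counts, the libraries that stand apart were most often the highest and the lowest of their side, cryopreserved replicate 1 and control replicate 3. The ranking value, however, uses the lowest high and the highest low library. Those were most often cryopreserved replicate 3 (127 loci) and control replicate 1 (105 loci). The same counts are not given for loci outside the list, so neither pattern is read as particular to it. The 200 loci resembled each other: the correlation of a locus with the mean profile of the other loci over the 6 libraries had a median of 0.961 and a lowest value of 0.866. The rule placed the same 3 libraries above the same 3 at every locus, so a high correlation was set in advance and nothing is read from it. The profiles also share the libraries and their depth.

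The locus with the most CPM in the list was ABG768_003974. It had 7158, 2140 and 4137 normalised counts in cryopreserved replicates 1, 2 and 3, against 2237, 4959 and 1723 in control replicates 1, 2 and 3. Its ratio of high to low means was 2.66 and its rank 192, near the end of the list. ABG768_016106, next in CPM, had 4158, 1023 and 2559 normalised counts in cryopreserved replicates 1, 2 and 3, against 1348, 3842 and 993 in control replicates 1, 2 and 3. Neither locus separated cryopreserved from control libraries, which the rule made impossible at any listed locus. ABG768_014462, ABG768_025781 and ABG768_020246 followed, with ratios of high to low means of 2.96, 3.43 and 3.47.

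Ratios were somewhat larger among the loci with fewer counts. Parted by their mean over the high libraries, the 67 loci with the fewest normalised counts had a median ratio of 4.04, the middle 66 one of 3.69 and the 67 with the most one of 3.34. The ranking adds a fixed number to the highest low library, which weighs more where counts are few. Such loci needed a larger ratio of the lowest high to the highest low library to be listed. The rule thus favoured a trend in this direction, and nothing is read from it. Over the 6 libraries the 200 loci averaged a median of 324 normalised counts, against 374 over all tested loci, and ran from 29.5 to 3725. Counts were not scaled for transcript length, so these figures describe read depth and not expression between genes.

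Cryopreserved and control libraries were compared with edgeR's quasi-likelihood test over all 21846 tested loci, the comparison the study's labels give. None of the 200 loci passed a Benjamini-Hochberg adjusted p of 0.05 with edgeR, and the background was 0% of all tested loci. At an unadjusted p under 0.05 there were 0 of the 200, against 0.581% (127) of all tested loci. DESeq2 tested 199 of the 200, of which 0 passed the adjusted threshold and 1 had an unadjusted p under 0.05, against 1.43% (364) of the 25538 loci it tested. The lowest adjusted p of edgeR among the 200 was 0.999955. In 200 of 200 loci the values of the cryopreserved and control libraries overlapped, which the rule made unavoidable. The rule also sets libraries of the same group apart at each of these loci and so works against small p-values. Nothing is therefore read from the lack of calls in the list.

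The fitted log2 fold change of cryopreserved against control was above 0 at all but 3 of the 200 loci, with a median of 0.59 and a range from -0.22 to 1.37. It exceeded 1 at 22 loci, against 3.66% of all tested loci. Over all tested loci the median was 0.02. With library size alone as the scaling it was above 0 at 185 loci, and with each other scaling at all but 3. Nothing is read from this lean, because the rule placed 2 cryopreserved libraries but 1 control library on the high side. The standard error of the fold change had a median of 0.75 log2 units over the 200 loci and of 0.50 over all tested loci. The rule itself widens it, by setting libraries of the same group apart.

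Without cryopreserved replicate 1 and control replicate 3, each group keeps 1 high and 1 low library. The sides then no longer favour a group by number. The libraries left had still chosen the loci, so nothing is read from the direction. In the fit without those 2 libraries, added after seeing the data, the log2 fold change was above 0 at 40 of the 200 loci. Its median was -0.21. Over all tested loci, 48.8% were above 0 and the median was -0.01. The p-values of this fit are not read, because the rule sets the libraries within each group apart at every one of these loci. With 1 surrogate variable in the model, a term estimated from the data, the fold change was above 0 at 81 of the 200 and had a median of -0.06. In that fit 49.3% of all tested loci were above 0, with a median of -0.005. The median over the 200 loci was thus below 0 in these 2 fits. It stayed above 0 when 1 library was left out at a time, but it moved. It was 0.10, 0.98 and 0.45 without cryopreserved replicates 1, 2 and 3, and 0.34, 1.46 and 0.28 without control replicates 1, 2 and 3.

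ABG768_014309 had the smallest edgeR p of the 200. It had 2033, 369 and 889 normalised counts in cryopreserved replicates 1, 2 and 3, against 310, 687 and 337 in control replicates 1, 2 and 3. Cryopreserved replicates 1 and 3 were above every control, and cryopreserved replicate 2 lay within the range of the controls. The cryopreserved libraries averaged 1097 ± 851 and the controls 445 ± 210 normalised counts (SD, n = 3 each), and the log2 fold change was 1.32 (SE 0.62), with an unadjusted p of 0.0652 and an adjusted p of 0.999955 by edgeR. ABG768_014462, ABG768_025943 and ABG768_014124 followed, with log2 fold changes of 0.96, 1.20 and 0.92 and unadjusted edgeR p-values of 0.123, 0.134 and 0.145. In each of these loci, too, cryopreserved replicate 1 was the highest library.

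Cryopreserved and control libraries can also be set side by side within the high and within the low libraries, where the rule allowed less than a 3-fold spread at the loci it took. Among the high libraries, the mean of cryopreserved replicates 1 and 3 divided by control replicate 2 had a median of 1.05, with quartiles of 0.879 and 1.21, and was above 1 at 119 loci. Among the low libraries, cryopreserved replicate 2 divided by the mean of control replicates 1 and 3 had a median of 0.909, with quartiles of 0.687 and 1.17, and was above 1 at 82 loci. Over all tested loci, which had no such limit, these medians were 1.002 and 0.981, and 50.2% and 48.0% of the loci were above 1. A side holds 1 library of one of the groups, so these ratios have no replicate check and were not tested. They also depend on the size factors.

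Between the libraries that do not stand apart, the median ratio of cryopreserved to control was below 1 on both sides. Cryopreserved replicate 3 divided by control replicate 2 had a median of 0.877 and was above 1 at 51 of the 200 loci. Cryopreserved replicate 2 divided by control replicate 1 had a median of 0.83 and was above 1 at 62. Over all tested loci the corresponding medians were 0.98 and 0.979. Cryopreserved replicate 1 divided by control replicate 2 had a median of 1.20 in normalised counts, on the other side of 1 from cryopreserved replicate 3. This direction depends on the scaling. The size factor was 0.863 for cryopreserved replicate 1, with 30795972 counts, and 1.07 for control replicate 2, with 26611022 counts. As a share of all counts, the 200 loci took 0.469% in cryopreserved replicate 1 and 0.526% in control replicate 2. Each of these ratios sets 1 library against 1 other and uses values that chose the loci. They describe these libraries only and were not tested.

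The extremes of the ratio among the high libraries were ABG768_014309 at 2.13, ABG768_011036 at 1.92 and ABG768_007047 at 1.85, and at the other end ABG768_024565 at 0.55, ABG768_011407 at 0.569 and ABG768_000135 at 0.572. ABG768_024565 had 451, 86.8 and 598 normalised counts in cryopreserved replicates 1, 2 and 3, against 194, 954 and 198.8 in control replicates 1, 2 and 3. It had the lowest fitted log2 fold change of the list, -0.22 with an unadjusted edgeR p of 0.793. ABG768_011036 had 788, 55.8 and 336 normalised counts in cryopreserved replicates 1, 2 and 3, against 145, 292 and 97.7 in control replicates 1, 2 and 3. Its cryopreserved libraries held both the highest and the lowest value.

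**Figure D4:**
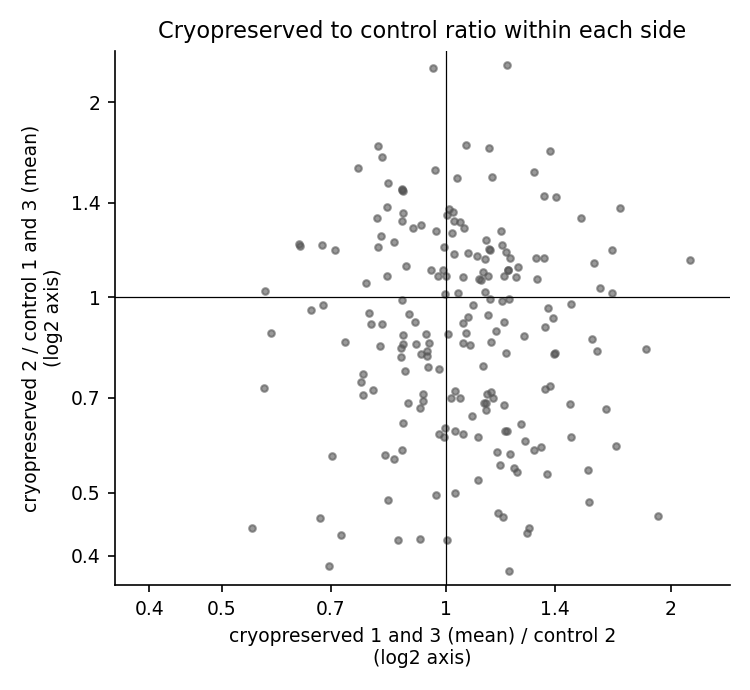
Ratio of cryopreserved to control libraries within the high side (horizontal) and within the low side (vertical) for each of the 200 loci, both on log axes. Lines mark a ratio of 1. The points scatter around 1 on both axes, from 0.55 to 2.13 across and from 0.379 to 2.28 upwards.

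The 200 loci covered long stretches of the genome. Their span from start to end, introns included, had a median of 20.6 kb, with quartiles of 9.76 and 37.8 kb. All tested loci had a median span of 9.76 kb, those within the limits of the rule 10.8 kb, and the list with the sides exchanged 4.78 kb. The tested loci were divided into 5 equal classes of span, which contributed 10, 23, 38, 54 and 75 loci to the list from the shortest to the longest class, and 69, 57, 38, 22 and 14 to the exchanged list. The number of listed loci per 100 tested loci was 0.229 in the shortest class, 0.526, 0.87 and 1.24 in the following ones and 1.72 in the longest. Only loci within the limits of the rule could be listed. Per 100 of those, the number was 0.52, 0.85, 1.28, 1.80 and 2.83 from the shortest to the longest class. Span is a property that the rule did not use, but it was not tested here because the libraries themselves differed with span.

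Levels over all tested loci differed with span, but not to the same extent in each library. The longest class differed from the shortest, in median deviation from the locus median, by 0.40, -0.16 and 0.02 log2 units in cryopreserved replicates 1, 2 and 3, and by -0.03, 0.24 and -0.72 in control replicates 1, 2 and 3. The 3 high libraries thus had differences from 0.02 to 0.40 and the 3 low libraries from -0.72 to -0.03. In size they were smallest in cryopreserved replicate 3 and control replicate 1. They were largest in cryopreserved replicate 1 and control replicate 3, the libraries that stand apart. The median difference of high from low libraries over all tested loci was -0.30 log2 units in the shortest class and 0.34 in the longest. The list was chosen on the gap between high and low libraries. There the ratio of high to low means had medians of 3.77, 3.99, 3.72, 3.49 and 3.70 from the shortest to the longest class. With each library's trend with span removed before the rule was applied, 160 of the 200 loci were chosen again. The part of this trend in the list was not tested.

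**Figure D5:**
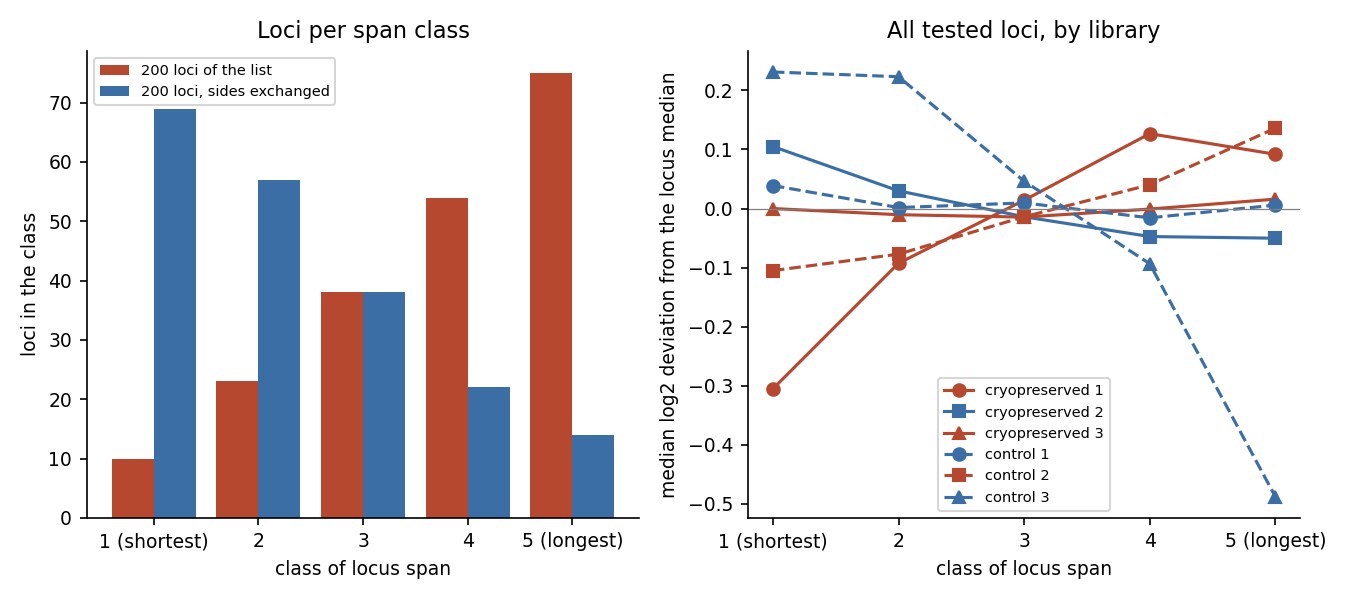
Left, loci of the list (red) and of the list with the sides exchanged (blue) in 5 classes of locus span, rising from 10 to 75 and falling from 69 to 14. Right, median log2 deviation from the locus median over all tested loci in each class and library, with high libraries in red, low ones in blue, cryopreserved libraries as solid and controls as dashed lines.

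The 200 loci were scattered over the genome. They lay on 24 chromosomes of the annotation, with 4 to 13 on each, or 0.291 to 1.43 per 100 tested loci of a chromosome. Over all tested loci the rate was 0.915 per 100. The longest run of neighbouring listed loci was 2, and 10 loci formed 5 such pairs. Another listed locus lay within 10 loci of 28 of them. No background share is given for this count, so nothing is read from it. In the exchanged list 2 loci were neighbours.

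The 5 pairs were ABG768_005270 with ABG768_005271, ABG768_009513 with ABG768_009514, ABG768_011168 with ABG768_011169, ABG768_011225 with ABG768_011226, and ABG768_016636 with ABG768_016637. ABG768_005270 had 228, 14.2 and 94.1 normalised counts in cryopreserved replicates 1, 2 and 3, against 36.2, 126 and 29.2 in control replicates 1, 2 and 3. Its neighbour ABG768_005271 had 999, 78.8 and 485 in cryopreserved replicates 1, 2 and 3, against 150, 582 and 112 in control replicates 1, 2 and 3. The order of the libraries was the same at both loci, from cryopreserved replicate 1 down to cryopreserved replicate 2. This pair is the 1 of the 5 with the same order at both loci, and 3 of the 5 pairs had the same highest library at both. Whether neighbours share reads, as overlapping or near-identical loci could, was not tested.

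The 360 tested loci that adjoin a listed locus and are not in the list had a median difference of high from low libraries of 0.17 log2 units, against 0.02 over all tested loci. The high libraries lay wholly above the low ones at 79 of them, or 21.9%, beside the 14.4% of all tested loci. Their median span was 10.9 kb. This difference was not tested.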

How the data were processed

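Poly-T beads were used to purify mRNA, which was primed with random hexamers and sequenced on an Illumina instrument, per the labels' protocols. The authors deposited raw read counts per locus, 1 column for each of the 6 libraries per the file header. Aligner, counter, genome build and strandedness: not given in the sources used here. Columns were matched to samples by title.

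The 200 loci were found with the rule given at the start of the report. The members and lists were chosen with earlier results of these data known. Cryopreserved and control libraries were compared with the quasi-likelihood test of edgeR (version 4.0.16, under R 4.3.3) over all 6 libraries, with TMM normalization, edgeR's expression filter by group, the group as the single term and Benjamini-Hochberg adjustment over 21846 loci at 0.05. Standard errors are the absolute log2 fold change over the root of F. The fit was checked on counts drawn with known changes, for whether the median fitted fold change came near the drawn one. The share of drawn changes that it called is not given here, so this check does not bear on the lack of calls. Alternatives used DESeq2 1.42.0, limma-voom (limma 3.58.1), sva 3.50.0, other size factors and filters, a replicate block and fewer libraries. Loci were put in order by the annotation of assembly ASM4018292v1, whose build may differ from that of the counts, so no coordinates are given. Span includes introns. The trend with span was removed as each library's median deviation in 20 bins of span.

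Loci were named by a rule: the 10 with the highest ranking value, the 5 with the most CPM, the 4 with the smallest edgeR p, those at the end of the list, neighbouring pairs, and the extremes of the ratio among the high libraries. Protein and promoter sequences were not used here, so the parts of the rule and the patterns that needed them were not applied.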

Additional observations from a re-analysis of the deposited data

How the results depend on the processing

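No locus of the 200 passed an adjusted p of 0.05 under any alternative, and over all loci the count was 0 except with DESeq2, which called 5, none of them in the list. Of the 200, 0 had an unadjusted p under 0.05 with edgeR and 1 with DESeq2. Leaving out 1 library gave 0 to 35 such loci, 35 when control replicate 2 and 10 when cryopreserved replicate 2 was dropped, beside 1.18% and 1.96% of all loci in those fits. After either, 1 group has libraries of 1 side, so the rule raises these counts. With the replicate block it was 0, and the calls were 0. Same-numbered libraries did not deviate together, with correlations of -0.14, -0.38 and -0.05 for numbers 1, 2 and 3. The log2 fold changes of the 4 loci with the smallest p lay from 0.08 to 1.96 in 16 alternatives each, with adjusted p from 0.994 to 1. All were above 0, the direction that the rule favours. These loci were also picked on the same values, so nothing is read from the kept sign. Of the 200 loci, 111 were also chosen with a spread limit of 2 and 128 with no spread limit. The other planned scalings, pseudocounts and level limits shared 137 or more. Without 1 library, 88 to 174 were shared, with 88 without control replicate 1, 90 without control replicate 3 and 130 without cryopreserved replicate 3. Without control replicate 3 and cryopreserved replicate 1 together it was 44, so most of the list depends on which libraries are used. The median difference of high from low libraries over the 200 loci was 1.85 log2 units. It lay between 1.68 and 1.96 in 10 alternatives added after seeing the data. This is no sign of stability, because the loci were held fixed and had been chosen on the gap between these libraries. What caused these changes was not tested. Differences at the 5 loci with fewer than 10 counts in a library are limited by depth.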
